A study of Rattus norvegicus with 9 samples.

Results

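The cathepsins are the main proteases of the lysosome, and the cystatins are their inhibitors. The 10 genes described here are 8 cathepsins (Ctsb, Ctsl, Ctss, Ctsk, Ctsz, Ctsc, Ctsh and Ctsd) and 2 cystatins (Cst3 and Cst7), out of 13752 gene IDs measured in the rat gastrocnemius, which the sciatic nerve supplies. They were found by matching NCBI gene IDs to RefSeq symbols. The list was selected on gene family and on earlier results of the same FPKM values and expected counts, among them a higher Cst7 in DN than in SHAM, so that difference is given as a description and nothing is read from its test. All 10 genes were listed in every library and passed the filter on low counts.

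Messenger RNA was sequenced on a BGISEQ-500 in 3 groups of 3 libraries, all from male rats labelled as 8 weeks old. DN-SM animals had a sciatic nerve injury and daily electrical stimulation for 4 weeks from the day of surgery, through surface electrodes on the calf (25 V, 1 mA, 2 Hz, pulse width 300 ms). DN animals had the nerve injury, and SHAM animals a sham operation; both were anaesthetised and fitted with the electrodes without current. The labels do not give the kind of nerve injury, the day on which DN and SHAM muscle was taken, or whether each library is a separate animal, so p-values measure only the spread between these libraries. Libraries held between 7926445 and 8893843 expected counts, and skeletal muscle markers dominated each one: Acta1, the actin of muscle fibres, lay between 63509 and 86465 FPKM.

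Cathepsins B, L, S, K, Z, C and H are cysteine proteases, and cathepsin D is an aspartic protease. They are made as inactive precursors, carried to the lysosome and activated in its acid interior, where they degrade proteins delivered by autophagy and endocytosis. Muscle fibres use this route beside the ubiquitin-proteasome system, and cathepsin L mRNA is known to increase in several kinds of muscle wasting. Cystatins block cysteine cathepsins and do not inhibit cathepsin D. Cst3, cystatin C, is secreted by most cell types, while Cst7, cystatin F, is best known in leukocytes, where it limits the activation of granule proteases through cathepsin C.

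None of the proteases passed the test for a difference with nerve injury or with stimulation. In DN against SHAM the 8 cathepsins and Cst3 had log2 fold changes between -0.30 and 0.33. None was past the threshold, beside 4.26% of all genes tested. Their 95% intervals all lay within a 2-fold change in either direction. Cst7 had the largest difference of the 10 genes, at 15.6 ± 7.91 FPKM in DN and 2.69 ± 0.837 FPKM in SHAM (SD, n = 3 each). Stimulated muscle lay between them for Cst7, at 10.9 ± 5.24 FPKM in DN-SM (SD, n = 3). None of the 10 genes passed the threshold in DN-SM against DN. Of all genes tested only 0.00987% did, so nothing is read from that count.

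**Figure D1:**
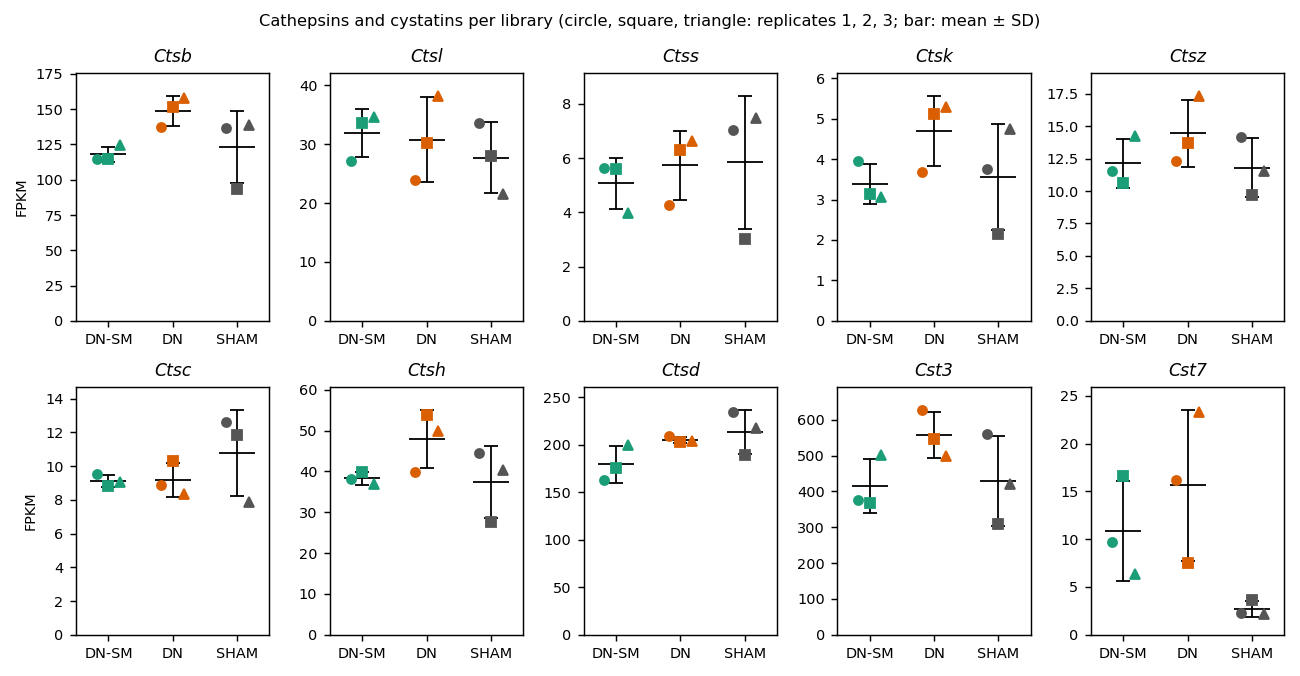
FPKM of each gene (vertical axis, linear, from 0) in the 3 groups, with 1 symbol per library and the mean ± SD as a bar. Cst7 is the gene whose 3 SHAM libraries, at 2.19 to 3.66 FPKM, lie below all 3 DN and all 3 DN-SM libraries.

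Per length and depth, the genes kept a steep order of abundance. Cst3 was highest, at 415 ± 75.1 FPKM in DN-SM, 558 ± 65.3 in DN and 430 ± 125 in SHAM (SD, n = 3). Ctsd and Ctsb followed, then Ctsh and Ctsl, and these top 5 places were the same in each group. The ranges of neighbouring genes in those places did not overlap, except for Ctsh and Ctsl in SHAM. Ctsz, Ctsc, Ctss and Ctsk were lower, with group means between 3.38 and 14.5 FPKM. Cst7 was in the last place in SHAM, the sixth in DN and the seventh in DN-SM, and its range overlapped that of Ctsz in both injured groups. Ctss and Ctsk overlapped in DN and SHAM, as did Ctsz and Ctsc in SHAM. Cst7 overlapped Ctsc in DN-SM and DN, and both Ctsk and Ctss in SHAM.

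Ctsd and Ctsb together made up most of the cathepsin mRNA. Ctsd contributed 45.1% ± 1.72 of the FPKM summed over the 8 cathepsins in DN-SM, 44.1% ± 3.08 in DN and 49.4% ± 2.02 in SHAM (SD, n = 3). Ctsb contributed 29.7% ± 0.905, 31.8% ± 0.588 and 28.2% ± 2.59 in DN-SM, DN and SHAM. The sum itself was 373.4, 391.8 and 426.5 FPKM in DN-SM libraries, 439.2, 474.3 and 487.9 FPKM in DN libraries, and 487.6, 365.1 and 449.8 FPKM in SHAM libraries. The DN-SM libraries thus lay below the DN libraries, and the SHAM libraries spread across both. Over all genes, the median shift in log2 fold change from TMM-scaled counts to FPKM (limma) was -0.088 in DN-SM against DN. The ratio of Cst3 to the 7 cysteine cathepsins, in FPKM, was 1.90 ± 0.278 in DN-SM, 2.17 ± 0.503 in DN and 1.93 ± 0.249 in SHAM (SD, n = 3). The ranges of all 3 groups overlapped.

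SHAM replicate 2 stood low. By library-scaled counts (CPM with TMM factors) it was the lowest SHAM library in 7 of the 10 genes, while it was the lowest in 38.0% of all genes tested. The 18 macrophage markers summed to 91.9 FPKM in SHAM replicate 2, against 135 and 161 FPKM in replicates 1 and 3. The 9 fibroblast markers summed to 357 FPKM in it, against 818 and 875 FPKM. Low libraries were present in the other groups too. DN replicate 1 was the lowest DN library in 6 of the 10 genes, beside 37.5% of all genes tested. It had 107 FPKM of macrophage and 525 FPKM of fibroblast markers, the lowest sums in DN. In DN-SM both sums were lowest in replicate 3, at 101 and 352 FPKM. The part of these cells in the levels of the cathepsins was not tested. In bulk muscle fewer cells of a type and less RNA per cell cannot be told apart.

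**Figure D2:**
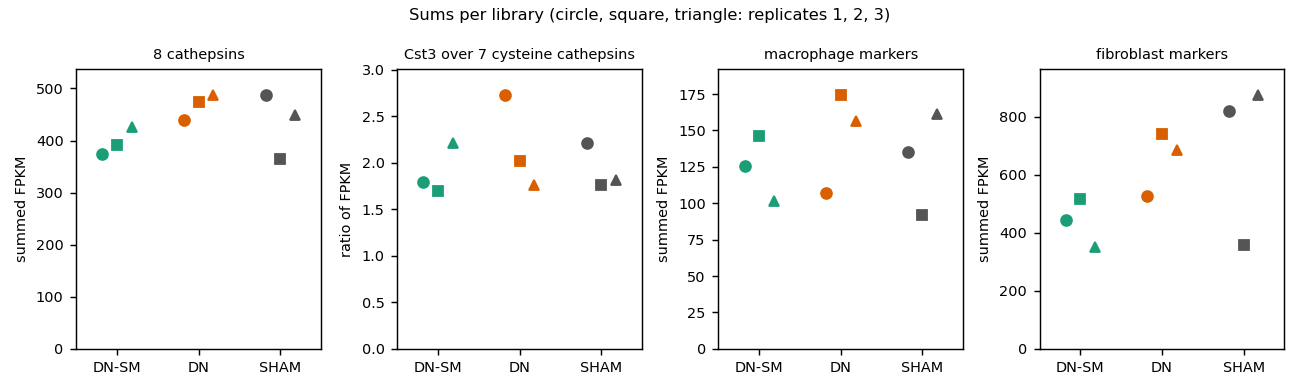
Sums per library (vertical axes from 0): FPKM of the 8 cathepsins, the ratio of Cst3 to the 7 cysteine cathepsins, and the FPKM of the macrophage and fibroblast markers. The square in SHAM, replicate 2, is the lowest SHAM library for the cathepsins (365 FPKM) and for both marker lists (91.9 and 357 FPKM).

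Nerve injury was addressed by DN against SHAM. Of 10129 genes tested, 4.26% were called at an edgeR adjusted p under 0.05. Of the 10 genes, 1 was called, and it was Cst7, whose rise was known when the list was made, so nothing is read from that count. The groups did not overlap in FPKM for 1 of the 10 genes, again Cst7, whereas 22.8% of all genes tested were so separated, 15.9% with DN higher. The median log2 fold change of the other 9 genes was 0.21, beside -0.01 over all genes tested, with 6 of the 9 above 0.

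Ctsb, Ctsl, Ctss and Ctsk are the cysteine endopeptidases, which cut proteins internally. Ctsb, which can also remove dipeptides from protein ends, had 137, 151 and 158 FPKM in DN libraries, against 137, 93.7 and 139 FPKM in SHAM libraries. The SHAM spread was wider than the DN spread, and DN replicate 1 was level with 2 SHAM libraries. Its log2 fold change was 0.21, with a 95% interval of -0.07 to 0.48 (edgeR adjusted p = 0.36). Ctsl had 23.8, 30.2 and 38.2 FPKM in DN libraries, against 33.6, 28.0 and 21.6 FPKM in SHAM libraries. The groups covered almost the same range, and the log2 fold change was 0.08 (interval -0.28 to 0.44; edgeR adjusted p = 0.829). An increase in Ctsl above 1.35-fold thus lay outside the interval.

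Ctss, an enzyme of antigen-presenting cells that trims the class II invariant chain, had 4.28, 6.29 and 6.64 FPKM in DN libraries, against 7.05, 3.03 and 7.47 FPKM in SHAM libraries. Every DN library lay between the lowest and the highest SHAM library. The log2 fold change was -0.10 (interval -0.72 to 0.53; edgeR adjusted p = 0.882). Ctsk, a collagen-degrading protease best known in osteoclasts, had 3.69, 5.11 and 5.28 FPKM in DN libraries, against 3.76, 2.15 and 4.75 FPKM in SHAM libraries. Its log2 fold change of 0.32 had an interval of -0.26 to 0.91 (edgeR adjusted p = 0.519), the widest upper bound among the 8 cathepsins. Without SHAM replicate 2 the log2 fold change of Ctsk was 0.09 and that of Ctss -0.39, both not called. Without DN replicate 1 they were 0.44 and 0.04, again not called. With each library left out in turn, Ctsk ranged from 0.09 to 0.63 and Ctss from -0.39 to 0.16.

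The cysteine exopeptidases Ctsz, Ctsc and Ctsh remove residues from protein ends. Ctsc, the dipeptidyl peptidase that activates granule serine proteases, had 8.91, 10.3 and 8.34 FPKM in DN libraries, against 12.6, 11.9 and 7.87 FPKM in SHAM libraries. Of the 10 genes it had the lowest log2 fold change, -0.30 (interval -0.68 to 0.09; edgeR adjusted p = 0.348). SHAM replicate 3 lay below all DN libraries in FPKM. In CPM it had 15.4, above DN replicate 3 at 14.2. Ctsh, an aminopeptidase, had 40.0, 53.9 and 50.0 FPKM in DN libraries, against 44.5, 27.6 and 40.4 FPKM in SHAM libraries. Its log2 fold change was 0.29 (interval -0.02 to 0.61; edgeR adjusted p = 0.258). Ctsz, a carboxypeptidase, had 12.3, 13.7 and 17.3 FPKM in DN libraries, against 14.2, 9.67 and 11.6 FPKM in SHAM libraries. Its log2 fold change was 0.22 (interval -0.13 to 0.58; edgeR adjusted p = 0.452), and the groups overlapped for all 3 exopeptidases.

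Ctsd, the aspartic protease, had the narrowest interval of the 10 genes. It had 209, 203 and 204 FPKM in DN libraries, against 235, 189 and 218 FPKM in SHAM libraries. In FPKM the DN libraries lay within the SHAM range. In CPM with TMM factors Ctsd had 435, 406 and 387 in DN libraries, against 453, 420 and 473 in SHAM libraries. On that scale DN replicates 2 and 3 lay below all SHAM libraries. The log2 fold change was -0.12 (interval -0.36 to 0.11; edgeR adjusted p = 0.548).

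**Figure D3:**
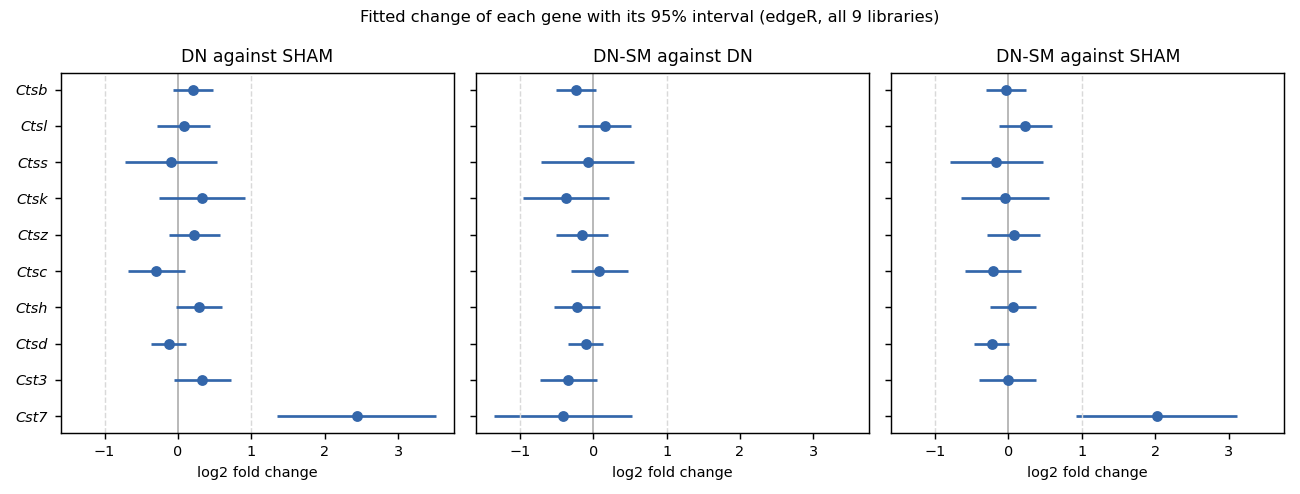
Log2 fold change of each gene (point) with its 95% interval (line) in the 3 comparisons, from the edgeR fit of all 9 libraries; dashed lines mark a 2-fold change. The intervals of the 8 cathepsins and Cst3 cross 0 in all 3 comparisons. The points of Cst7 against SHAM, at 2.43 for DN and 2.02 for DN-SM, rest on libraries used to choose it, and their intervals are drawn as a description.

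The 2 cystatins differed in both level and pattern. Cst3 had 377, 367 and 502 FPKM in DN-SM libraries, 628, 546 and 499 FPKM in DN libraries, and 559, 309 and 422 FPKM in SHAM libraries. All groups overlapped, and in DN against SHAM the log2 fold change was 0.33 (interval -0.06 to 0.72; edgeR adjusted p = 0.302). Cst7 had 9.67, 16.6 and 6.35 FPKM in DN-SM libraries, 16.2, 7.47 and 23.3 FPKM in DN libraries, and 2.23, 3.66 and 2.19 FPKM in SHAM libraries. Both injured groups spread widely, and neither overlapped SHAM. Behind these values stood 57 to 162 expected counts per library in DN-SM, 71 to 224 in DN and 20 to 36 in SHAM.

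The fitted difference of Cst7 in DN against SHAM was 2.43 on the log2 scale (SE 0.484), a 5.40-fold higher level, and 12 of the 10129 genes tested had a larger one. Even so, Cst7 remained a small share of the cystatin mRNA. It made up 2.70% ± 1.55 of the FPKM of Cst3 and Cst7 in DN-SM, 2.77% ± 1.57 in DN and 0.694% ± 0.416 in SHAM (SD, n = 3). In DN-SM against SHAM Cst7 was 2.02 higher on the log2 scale, with all 3 DN-SM libraries above all 3 SHAM libraries, beside 7.49% of all genes tested that were higher without overlap. The SHAM libraries are those on which Cst7 was selected, so this too is a description. It was called by DESeq2, which called 2.63% of all genes tested, and not by edgeR, which called 0.839%, and nothing is read from either.

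The bases before the annotated start are shown for Cst7, the member whose level differed most, and for Ctsd, the most abundant cathepsin and the one with the narrowest interval. Sequences are from RefSeq on build GRCr8, 250 bases each, 5′ to 3′ on the strand of the gene, with each CANNTG (an E-box, the binding sequence of basic helix-loop-helix factors such as myogenin, TFEB and the clock activators) in capitals. Cst7 is at chr3:159857030-159857279, plus strand, and Ctsd at chr1:206968822-206969071, minus strand.
Cst7: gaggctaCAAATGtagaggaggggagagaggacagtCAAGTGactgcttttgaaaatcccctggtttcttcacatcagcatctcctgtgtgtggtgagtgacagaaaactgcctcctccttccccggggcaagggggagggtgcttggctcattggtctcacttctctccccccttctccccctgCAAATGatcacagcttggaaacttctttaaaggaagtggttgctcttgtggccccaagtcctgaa
Ctsd: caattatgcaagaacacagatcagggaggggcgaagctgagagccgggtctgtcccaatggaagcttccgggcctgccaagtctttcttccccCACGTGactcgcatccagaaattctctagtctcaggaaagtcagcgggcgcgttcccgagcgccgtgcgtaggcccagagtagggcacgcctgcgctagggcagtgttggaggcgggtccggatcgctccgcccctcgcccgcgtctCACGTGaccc
Cst7 held 3 matches to CANNTG and none to CACGTG, while Ctsd held 2 matches, both CACGTG.

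The second match in Ctsd lies in TCACGTGA, the centre of the element through which TFEB is known to act on lysosomal genes, with its first base 11 bases before the start. Of 33469 rat promoters in the table, each taken over the same 250 bases and both strands, 0.657% held TCACGTGA, 5.59% held CACGTG and 65.5% held CANNTG. Promoters of 9 of the 10 genes were in the table, all but that of Ctsb. CANNTG was present in 5 of them and CACGTG in 1. The GC box GGGCGG was found in 5 of the 9 (Cst3, Ctsc, Ctsd, Ctsl and Ctsz) and in 30.5% of all promoters. The TATA box TATAAA was found in 1, that of Ctss, and in 12.9% of all promoters. The Cst7 window held neither, and 1 CG dinucleotide, against 22 in Ctsd, 24 in Ctsl and a median of 5 over all promoters. These matches describe letters only and were not tested for use.

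Stimulation of the injured muscle was addressed by DN-SM against DN. None of the 10 genes was called by edgeR, and of all genes tested 0.00987% were. That 1 gene, named after its values were seen, was Serpina3n, a serine protease inhibitor, at 0.06, 0.39 and 0.55 FPKM in DN-SM libraries, against 3.79, 4.93 and 5.55 FPKM in DN libraries. At an unadjusted p under 0.05 there were 1784 genes, and the smallest unadjusted p among the 10 was 0.0807, for Ctsb. By DESeq2 none of the 10 was called either, where 2.19% of genes were. The median log2 fold change of the 9 genes other than Cst7 was -0.15, beside -0.01 over all genes tested, with 7 of the 9 below 0. This comparison uses the same DN libraries as the one with SHAM, so the values are given side by side and not set against each other.

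Ctsb was the member whose groups were apart on both scales. It had 115, 115 and 124 FPKM in DN-SM libraries, against 137, 151 and 158 FPKM in DN libraries. The log2 fold change was -0.24 (interval -0.51 to 0.03; edgeR adjusted p = 0.338). Ctsh had 38.1, 39.9 and 36.9 FPKM in DN-SM libraries, against 40.0, 53.9 and 50.0 FPKM in DN libraries, with 39.90 in the highest DN-SM library and 39.96 in the lowest DN library. Ctsd had 163, 176 and 200 FPKM in DN-SM libraries, against 209, 203 and 204 FPKM in DN libraries. In FPKM these 3 of 10 genes were lower without overlap, where 21.3% of all genes tested were. In CPM only Ctsb was, where 13.1% of all genes were, and both counts are given without a reading beyond that background.

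The other members overlapped between DN-SM and DN. Cst3 had a log2 fold change of -0.34 (interval -0.73 to 0.05; edgeR adjusted p = 0.339), and Ctsk of -0.37 (interval -0.96 to 0.22; edgeR adjusted p = 0.484). Cst7 had -0.41 with the widest interval of the 10, -1.35 to 0.53 (edgeR adjusted p = 0.631), so that levels of 0.391 and of 1.44 times that in DN were its bounds. Ctsl and Ctsc were the members above 0, at 0.15 (interval -0.20 to 0.51) and 0.08 (interval -0.30 to 0.47). Ctsz was at -0.15 and Ctss at -0.07, neither past the threshold. The edgeR fit of DN-SM and DN alone called 7.21% of genes and still none of the 10. The smallest adjusted p among them in that fit was 0.144, for Ctsb.

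In DN-SM against SHAM the 8 cathepsins and Cst3 had log2 fold changes between -0.23 (Ctsd) and 0.23 (Ctsl), and none was called, beside 0.839% of all genes tested. The interval of Ctsd ran from -0.47 to 0.01 (edgeR adjusted p = 0.418) and that of Ctsl from -0.13 to 0.59 (edgeR adjusted p = 0.60). Cst3 was at -0.01 (interval -0.40 to 0.38), with the DN-SM libraries inside the SHAM range. The median over these 9 genes was -0.03, beside 0.02 over all genes tested.

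Cst7 is known from leukocytes, so the markers of those cells are given beside it. The 9 listed genes of granule proteases and cytotoxic cells, among them Prf1 and Gzmm, summed to 2.55 to 3.53 FPKM in DN-SM, 3.19 to 3.53 in DN and 1.54 to 4.42 in SHAM. That is less than the level of Cst7 alone in each DN-SM and DN library, and 6 of the 9 genes (Gzma, Gzmb, Gzmk, Nkg7, Klrd1 and Cd3e) were at 0 in at least 1 library. None of the 9 passed the filter on low counts, so none was tested. The 18 macrophage markers summed to 101 to 146 FPKM in DN-SM, 107 to 175 in DN and 91.9 to 161 in SHAM. Of these, Msr1 was at 0 in at least 1 library. Of 17 tested macrophage markers in DN against SHAM 1 was higher and 0 were lower, beside 2.57% higher and 1.7% lower over all genes.

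Markers of endothelium and of Schwann cells also differed between DN and SHAM. Endothelial markers were higher in 4 of 8 genes and Schwann cell markers in 2 of 8, beside 2.57% of all genes tested. Their medians were 0.63 and 1.03 on the log2 scale, with 7 of 8 and 8 of 8 genes above 0. The 8 Schwann cell markers summed to 157, 309 and 132 FPKM in DN replicates 1, 2 and 3, where Cst7 had 16.2, 7.47 and 23.3 FPKM. In DN-SM they summed to 81.9, 78.4 and 173 FPKM, where Cst7 had 9.67, 16.6 and 6.35 FPKM. In both groups the library with the most Schwann cell marker mRNA had the least Cst7. The 8 endothelial markers summed to 175, 156 and 153 FPKM in DN-SM replicates 1, 2 and 3. They summed to 176, 200 and 223 FPKM in DN replicates, and to 137, 114 and 118 FPKM in SHAM replicates. With 3 libraries in each group, no relation to Cst7 is read from the order of the libraries for either cell type. The part of either cell type in the level of Cst7 was not tested. The 7 neutrophil markers summed to 18.3 to 32.3 FPKM in DN-SM, 29.4 to 34.3 in DN and 25.4 to 37.1 in SHAM, so the groups overlapped, and most of the sum was Ncf1, an oxidase subunit of phagocytes, and S100a9. Mpo, Elane and Cxcr2 were at 0 in some libraries, and 0 of the 3 tested markers were called. Of 5 tested mast cell markers and 9 fibroblast markers 0 were called. In DN against SHAM 4.26% of all genes tested were called, so nothing is read from these counts of 0.

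The pattern of Cst7 over the 9 libraries was most like that of Prrt4, Tmem158 and Mthfd1l. Likeness was the root mean square difference between 2 genes of the log2 CPM centred on its mean, 0.35 for Prrt4, 0.44 for Tmem158 and 0.50 for Mthfd1l, with a median of 1.16 over all genes tested. Tmem158, a membrane protein, lay between 4.72 and 7.41 FPKM in DN-SM, 3.14 and 9.52 in DN, and 0.93 and 1.15 in SHAM. Like Cst7 it was lowest in DN in replicate 2. The 3 genes were picked for likeness over these same 9 libraries, so shared highs and lows follow from the choice. Prrt4 and Mthfd1l, a mitochondrial enzyme of folate metabolism, were far less abundant, with group means of at most 2.31 and 0.757 FPKM.

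**Figure D4:**
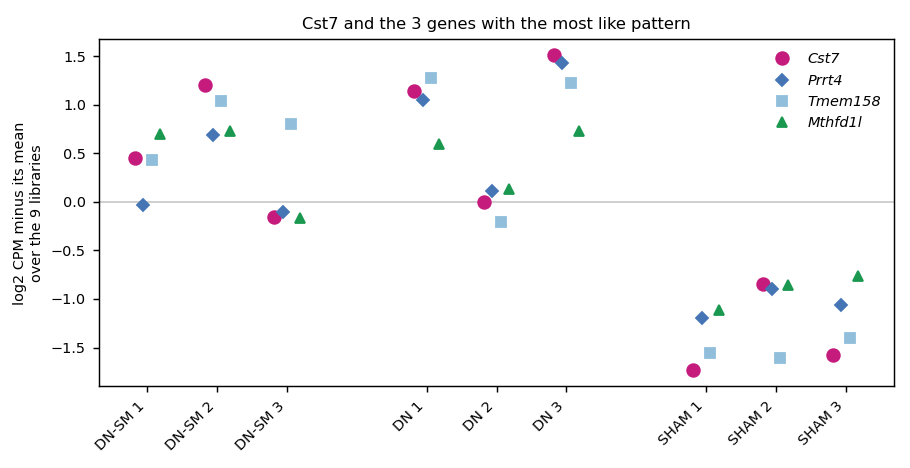
Log2 CPM minus the mean of the gene over the 9 libraries (vertical axis) for Cst7, Prrt4, Tmem158 and Mthfd1l in each library. All 4 genes lie below 0 in the 3 SHAM libraries, and in DN they are lowest in replicate 2. The other 3 genes were chosen for likeness to Cst7 in these same libraries, so the shared pattern follows from the choice.

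The same measure was taken for 3 of the proteases. Ctsk was nearest to Col6a2, a collagen VI chain (0.11), Pcolce, an enhancer of procollagen processing (0.12), and Anxa5, a phospholipid-binding protein (0.12), with a median of 0.42 over all genes. Ctss was nearest to Tf, transferrin (0.12), Pltp, a phospholipid transfer protein (0.12), and Ppcdc, an enzyme of coenzyme A synthesis (0.14), with a median of 0.44. Ctsl was nearest to Klhl41, a kelch protein of muscle fibres (0.09), Tmod3, an actin-capping protein (0.11), and Tm9sf2 (0.11), with a median of 0.34. On the RefSeq map of assembly GRCr8 Ctsk and Ctss lie on chromosome 2 with 1 annotated coding gene between them.

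Other members of both families were few in this muscle. Of 14 further cathepsin-family genes written for the comparison 5 were listed and 3 were tested: Ctsa, a serine carboxypeptidase of the lysosome, Ctsf, and Tinagl1, a relative without protease activity. Ctsw was at 0 in at least 1 library. None of the 3 passed the threshold in any comparison, and nothing is read from that. Called shares of all genes tested were 4.26% in DN against SHAM, 0.00987% in DN-SM against DN and 0.839% in DN-SM against SHAM. Ctsa had 56.4 ± 4.94 FPKM in DN-SM, 61.5 ± 6.80 in DN and 57.3 ± 4.62 in SHAM (SD, n = 3). Ctsf had 16.0 ± 1.32, 20.3 ± 1.86 and 17.6 ± 2.63 FPKM in DN-SM, DN and SHAM. Tinagl1 had 28.19 ± 5.34, 24.33 ± 0.653 and 19.35 ± 3.44 FPKM in DN-SM, DN and SHAM. In DN-SM against SHAM the log2 fold change of Tinagl1 was 0.57 (edgeR adjusted p = 0.0968). Of the other cystatins and related inhibitors Cstb, the cystatin of the cytosol, was the tested one, at 21.7 ± 8.20 FPKM in DN-SM, 28.7 ± 7.56 in DN and 20.1 ± 5.33 in SHAM. Its log2 fold change in DN against SHAM was 0.43 (edgeR adjusted p = 0.383).

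Other lysosomal genes are given beside these families. The 5 lists of hydrolases, membrane proteins, proton pump subunits, sorting factors and transcription factors, drawn up with earlier results known, held 74 tested genes. In DN against SHAM 2 of them were higher and 0 lower, or 2.70% of the 74, beside 4.26% of all genes. In DN-SM against DN and in DN-SM against SHAM 0 of the 74 were called, beside 0.00987% and 0.839% of all genes. These counts lie close to the shares over all genes, so nothing is read from them. Medians in DN against SHAM were 0.05 for the 26 hydrolases, 0.04 for the 14 membrane proteins, -0.07 for the 17 pump subunits, 0.04 for the 13 sorting factors and -0.22 for the 4 transcription factors. Tfeb and Lgmn are given for their roles and were picked after their values were seen. Tfeb, a main activator of lysosomal genes, had 49.9 ± 1.18 FPKM in DN-SM, 56.4 ± 2.88 in DN and 51.8 ± 2.87 in SHAM, with a log2 fold change of 0.05 in DN against SHAM (edgeR adjusted p = 0.857). Lgmn, legumain, a lysosomal protease that cystatin C and cystatin F can also inhibit, had 0.28 (edgeR adjusted p = 0.27).

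**Figure D5:**
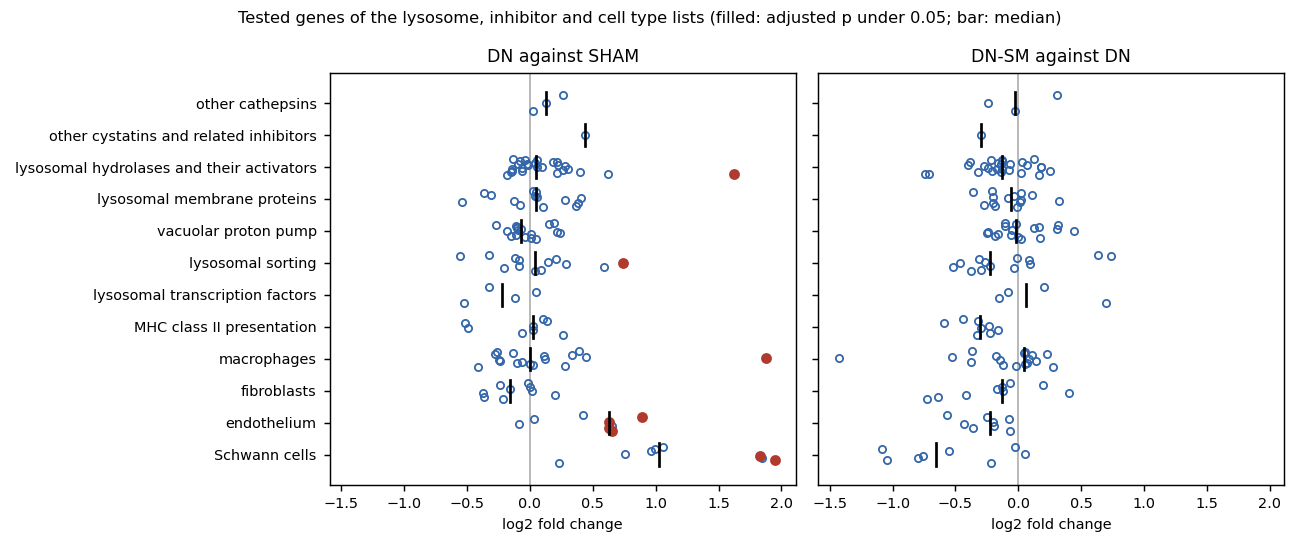
Log2 fold change (horizontal axis) of each tested gene in 12 lists, for DN against SHAM and DN-SM against DN; filled points passed the threshold and bars are list medians. In DN against SHAM the filled points outside endothelium and Schwann cells are Acp5 at 1.62, Grn at 0.74 and Gpnmb at 1.87, and DN-SM against DN has none.

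The 2 called lysosome genes were Acp5 and Grn. Acp5, the tartrate-resistant acid phosphatase of osteoclasts and macrophages, had 1.38, 1.18 and 1.75 FPKM in DN-SM libraries, 2.72, 2.36 and 2.74 FPKM in DN libraries, and 0.53, 0.73 and 1.12 FPKM in SHAM libraries. None of the 3 groups overlapped. It was higher in DN than in SHAM by 1.62 on the log2 scale (SE 0.33, edgeR adjusted p = 0.0232), a call that was lost without any 1 of SHAM replicates 1 and 2 or the 3 DN replicates (adjusted p up to 0.0853). It was also lost when edgeR was run without the DN-SM libraries (edgeR adjusted p = 0.0505), and DESeq2 gave no adjusted p. Grn, progranulin, a precursor that cathepsins cleave in the lysosome, had 32.1, 31.7 and 32.7 FPKM in DN-SM libraries, 43.4, 46.9 and 51.8 FPKM in DN libraries, and 31.1, 19.9 and 29.4 FPKM in SHAM libraries. All 3 DN libraries lay above the other 6. It was higher in DN by 0.74 (SE 0.127, edgeR adjusted p = 0.0122), and the call was lost without DN replicate 3 (adjusted p = 0.0546).

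Gpnmb, a lysosome-associated glycoprotein of macrophages, was the called macrophage marker. It had 2.04, 2.53 and 3.39 FPKM in DN-SM libraries, 3.76, 10.5 and 8.73 FPKM in DN libraries, and 2.81, 0.79 and 2.40 FPKM in SHAM libraries. The log2 fold change in DN against SHAM was 1.87 (SE 0.426, edgeR adjusted p = 0.0401), and it was called in 3 of 17 alternatives. The adjusted p was up to 0.13 with 1 library left out, and it was below the threshold without DN replicate 1. In DN-SM against DN Grn was at -0.46 (edgeR adjusted p = 0.144), Acp5 at -0.74 (edgeR adjusted p = 0.24) and Gpnmb at -1.43 (edgeR adjusted p = 0.168), none past the threshold.

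Genes of MHC class II presentation, the route that Ctss serves, were not called in any comparison, and nothing is read from that. Of all genes tested 4.26% were called in DN against SHAM, 0.00987% in DN-SM against DN and 0.839% in DN-SM against SHAM. Cd74, the invariant chain, ranged from 61.7 to 124 FPKM in DN-SM, 116 to 148 in DN and 86.4 to 135 in SHAM. The median log2 fold change of the 8 genes was 0.03 in DN against SHAM and -0.31 in DN-SM against DN, where 0 of 8 lay above 0. Over all genes tested it was -0.01 in both comparisons. The DN-SM libraries were uneven: the 8 genes summed to 205, 174 and 103 FPKM in replicates 1, 2 and 3. In DN they summed to 192, 241 and 213 FPKM, and in SHAM to 181, 141 and 238 FPKM.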

How the data were processed

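The authors deposited 1 file per library with an expected count and an FPKM value per gene. Per the file headers the expected count is the estimated count of RSEM, without normalization, and the FPKM values were scaled by the authors to transcript length and library size. The tools RSEM, HISAT2 and GATK and the build rn6 are named, per the submitters' processing notes; versions and settings are not given in the sources used here. The files list no gene at 0, so an absent gene was given the value 0. Symbols were taken from RefSeq by gene ID (13649 IDs) or accession (7), and 96 stayed unmatched.

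Expected counts were rounded and fitted with the robust quasi-likelihood test of edgeR 4.0.16 in R 4.3.3, with TMM factors, filterByExpr (minimum count 10, minimum total 15) and all 9 libraries in 1 fit by group. P-values were adjusted by Benjamini-Hochberg over all 10129 genes tested (threshold 0.05), and 95% intervals came from the same fit. Levels are FPKM with SD over 3 libraries. Totals of 7926445 to 8893843 counts limit the precision of low genes such as Ctsk and Ctss. Members and lists were chosen with earlier results of these data known. Named genes were all members, genes from the lists, and the 3 nearest patterns of Cst7, Ctss, Ctsl and Ctsk. List genes could be named if called or among up to 3 per list with the smallest p, and not all of these are named. Outside that rule, Tfeb, Lgmn, Serpina3n, Acta1 and the untested or undetected cell type markers were named after their values were seen. Alternatives were RLE factors, DESeq2 1.42.0, no filter, fits of 2 groups, the replicate block, limma 3.58.1 on log2(FPKM + 1) or log2(FPKM + 0.1) (filtered at an FPKM of 1 in 3 libraries, or unfiltered), and leaving out each library.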

Additional observations from a re-analysis of the deposited data

How the results depend on the processing

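In DN against SHAM the count of the 10 genes called was 1 (Cst7) and became 0 without a filter and with the replicate block. It was 0 to 1 with 1 library left out, being 0 without any 1 of SHAM replicates 1, 2 and 3 or DN replicates 1 and 3. In DN-SM against SHAM it was 0 and became 1 by DESeq2 (Cst7). In DN-SM against DN it was 0 under all 17 alternatives. The 8 cathepsins and Cst3 were called under none of the 17 alternatives in any comparison. The log2 fold change of Cst7 in DN against SHAM stayed between 2.07 and 2.77.

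Signs changed for values near 0, and the cause was not tested. Over all genes, the median shift of the limma fits from the main fit was 0.072 to 0.076 in DN against SHAM. In DN-SM against DN it was -0.094 to -0.088. Relative to TMM-scaled counts, FPKM of the median gene thus stood higher in DN. In DN against SHAM Ctss was 0.0326 by limma with a pseudocount of 1, filtered or not, and 0.0517 with 0.1. It ranged from -0.39 to 0.16, and Ctsl from -0.0599 to 0.20, with 1 library left out. In DN-SM against DN Ctsc was -0.0035 by limma with a pseudocount of 1, filtered or not, and -0.0034 with 0.1. With 1 library left out Ctsc ranged from -0.0182 to 0.18 and Ctss from -0.21 to 0.0756. In DN-SM against SHAM Cst3 was 0.0052 with the replicate block. With 1 library left out the ranges were -0.17 to 0.13 for Cst3, -0.16 to 0.10 for Ctsb, -0.46 to 0.0941 for Ctss, -0.28 to 0.26 for Ctsk, -0.0595 to 0.16 for Ctsz and -0.0804 to 0.16 for Ctsh.

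Over all genes the count called in DN against SHAM was 432, against 770 by DESeq2, 156 in the fit of 2 groups, and 278, 250 and 131 by limma with a pseudocount of 1, of 0.1 and of 1 without a filter. Of the 432, 260 were higher and 172 lower. The split was 203 and 75 by limma with a pseudocount of 1, and turned to 358 and 412 by DESeq2. The count was 58 (without DN replicate 3) to 1183 (without SHAM replicate 3, 432 higher and 751 lower) with 1 library left out. In DN-SM against DN it was 1, against 222 by DESeq2, 716 in the fit of 2 groups, 0 by limma with a pseudocount of 0.1, and 0 to 416 with 1 library left out. In DN-SM against SHAM it was 85, against 266, 28, 47, 43 and 25 in those 5 fits, 39 with the replicate block, and 15 to 137 with 1 library left out. The labels do not say that replicate numbers pair animals, and same-numbered libraries did not deviate together (correlations of -0.05 to 0.11). The replicate block changed no other call among the 10 genes.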
